A study of Mus musculus with 6 samples.

Results

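The 10 genes followed here set the fate of pyruvate: Mpc1 and Mpc2, Pdha1 and Pdhb, Pdk1, Pdk2, Pdk3 and Pdk4, and Ldha and Ldhb. They were taken by name after NCBI gene numbers had been paired with symbols and the transcripts of each gene had been summed, and they are 10 of 17558 genes in the table. The data are RNA sequencing of 6 libraries in 3 groups from C2C12, a mouse myoblast line, immortalized, whose cells can be driven to form multinucleated myotubes. All cells had spent 48 h in differentiation medium (low horse serum with insulin, transferrin and selenium). The control group stably carried a non-targeting scrambled hairpin (shScr, labelled wild type, 2 libraries), the second group a hairpin against the Pkm1 splice isoform of pyruvate kinase (shPkm1, 2 libraries) and the third a hairpin against the Pkm2 isoform (shPkm2, 2 libraries). All 3 groups therefore share the line, the medium, the time and a stably expressed hairpin. The labels do not give the number of hairpins per target or whether the cells were clones or pools, nor whether the 2 libraries of a group came from separate cultures, so p-values measure the spread between these libraries, which may be technical. The question of the design is what the lowering of either isoform does to differentiating myoblasts.

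Pyruvate is the end product of glycolysis. In the cytosol it can be reduced to lactate by lactate dehydrogenase, a tetramer of the subunits encoded by Ldha and Ldhb, or it can enter mitochondria through a carrier that needs both Mpc1 and Mpc2. There the pyruvate dehydrogenase complex turns it into acetyl-CoA, and the kinases Pdk1 to Pdk4 switch that complex off by phosphorylating its Pdha1 subunit while the phosphatases Pdp1 and Pdp2 switch it on again. Skeletal muscle is known for Pdk4, which rises in fasting and when fatty acids are burned, and for the gain of mitochondria during the formation of myotubes.

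The hairpin targets were examined first. The Pkm1 transcript stood at 546 and 589 TPM (transcripts scaled to length and to a fixed sum per library) in the shScr libraries, at 243 and 218 TPM in the shPkm1 libraries and at 254 and 254 TPM in the libraries labelled shPkm2. The Pkm2 transcript stood at 1073 and 1517 TPM, 1278 and 1379 TPM, and 2700 and 2630 TPM in the same order. Pkm1 was therefore lower in both hairpin groups (log2 fold change -1.66, adjusted p = 0.00272, and -1.58, adjusted p = 0.00124; edgeR quasi-likelihood test on 33433 transcripts). Pkm2 was not lower in the libraries labelled shPkm2, where its log2 fold change was 0.63 (adjusted p = 0.0656, same edgeR test), and it was -0.31 in shPkm1 (adjusted p = 0.322). Between the hairpin groups, Pkm2 was higher with the shPkm2 label (0.93, adjusted p = 0.0390, edgeR), as was the whole gene Pkm (0.83, adjusted p = 0.000159, edgeR), and Pkm1 gave 0.08 (adjusted p = 0.690). These libraries are called by their label throughout, and no direction below is read as an effect of less Pkm2.

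Each library held between 18216896 and 19796036 estimated counts, and the lowest count of any of the 10 genes in any library was 111 (Pdk4). All 10 genes passed the filter on low counts. The muscle identity of the cells was plain in the control group: 12 muscle genes summed to 29572 and 41928 TPM in shScr, to 14531 and 15560.0 TPM in shPkm1 and to 1042 and 1113 TPM in the libraries labelled shPkm2. Summed TPM of 10 cell cycle genes ran the other way, at 161 and 228, 408 and 404, and 1341 and 1247. Markers of adipocytes, endothelium and epithelium each summed to at most 0.62 TPM. Osteoblast markers summed to 4.77 and 7.32 TPM in shScr and to between 15.03 and 18.1 TPM in the 4 hairpin libraries, a sum made up mostly of Runx2 (called higher in both groups, 1.26 and 1.27), the only 1 of the 4 osteoblast markers that could be tested. Ibsp was listed at 0 in every library, Sp7 stood at no more than 0.16 TPM, and Bglap stood at 0.83 and 1.24 TPM in shScr, 1.27 and 1.37 TPM in shPkm1 and 0 and 0.60 TPM with the shPkm2 label. Macrophage markers summed to 0.82 and 1.72 TPM in shScr and to between 3.06 and 4.11 TPM in the hairpin libraries, with Cd68 called higher in both (1.02 and 1.22) and Csf1r higher in shPkm1 (1.47) but lower with the shPkm2 label (-1.81). The differentiation and cell cycle genes, Runx2, Cd68 and Csf1r thus moved with the groups that every result below compares, and their part in those results was not tested. In bulk RNA, fewer cells of a type and less RNA per cell cannot be told apart.

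Levels below are TPM, which are scaled to transcript length. Differences are log2 fold changes, each ± its standard error (SE), of counts after TMM scaling (trimmed mean of M values, which sets library size from genes that change little), tested with edgeR's quasi-likelihood test with Benjamini-Hochberg adjustment over 12643 genes and a threshold of 0.05. The choice of scale matters here. On TMM the median of all genes tested lay at 0.00 for shPkm1 and at 0.01 for the libraries labelled shPkm2, each against shScr. On log2(TPM + 1) it lay 0.31 and 0.36 higher, and with library totals alone 0.19 and 0.32 higher. A member can therefore have a level in TPM close to that of the control and still be called lower relative to the other genes, and each such case is named.

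**Figure D1:**
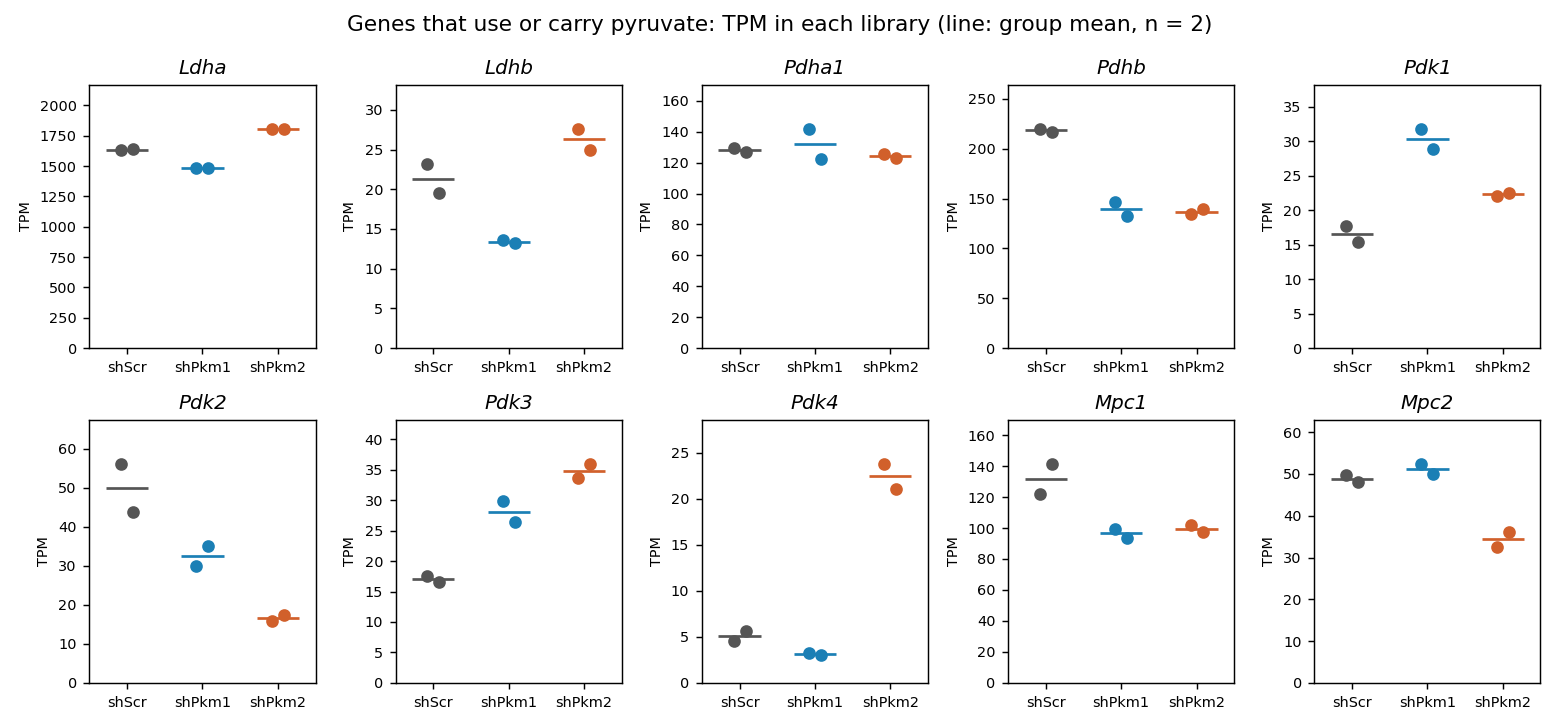
TPM of each of the 10 genes (vertical axis, its own scale per panel, starting at 0) in the 6 libraries, with the group mean as a line (n = 2 per group). Pdk4 sits at 21.1 and 23.9 TPM in the libraries labelled shPkm2 against 3.04 to 5.66 TPM in all others, Pdk2 declines from shScr through shPkm1 to those libraries, and Pdhb is at 217 and 220.1 TPM in shScr and at 133 to 146 TPM in the others.

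In shPkm1 against shScr, 2 of the 10 genes were called higher and 8 lower. Over all genes tested, 63.1% were called (31.8% higher and 31.4% lower), so that a call as such was common. The median log2 fold change of the 10 genes was -0.68. In the libraries labelled shPkm2 against shScr, 2 were higher, 6 lower and 2 were not called, with a median of -0.41, against 68.0% called over all genes (33.9% higher, 34.2% lower). The direct comparison of the libraries labelled shPkm2 with shPkm1 gave 2 higher, 3 lower and 5 not called, with a median of -0.06, against 53.0% of all genes (25.7% higher, 27.3% lower). The first 2 comparisons share the shScr libraries, so their values are set side by side and no overlap between them is read. The 10 genes that follow are described by role.

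Of the mitochondrial pyruvate carrier, Mpc1 fell in both hairpin groups and Mpc2 in the libraries labelled shPkm2, while the direction of Mpc2 in shPkm1 depended on the scale. Mpc1 stood at 122 and 142 TPM in shScr, at 99.5 and 93.5 TPM in shPkm1 and at 102 and 97.3 TPM in the libraries labelled shPkm2. Both hairpin groups lay below both controls, and they overlapped each other. The log2 fold change of Mpc1 was -0.82 ± 0.0935 (SE; adjusted p = 6.79e-06, edgeR) in shPkm1 and -0.85 ± 0.0933 (adjusted p = 3.24e-06) in the libraries labelled shPkm2. Between these 2 groups it was -0.03, with a 95% interval from -0.23 to 0.18 (adjusted p = 0.818, edgeR), and 0.10 with library totals and 0.04 on log2(TPM + 1).

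Mpc2, the partner without which the carrier is not assembled, stood at 49.7 and 48.1 TPM in shScr, 52.5 and 50.01 TPM in shPkm1 and 32.5 and 36.2 TPM in the libraries labelled shPkm2. The last group lay below both others, and the shPkm1 libraries lay just above the controls. The log2 fold change of the last group was -0.96 ± 0.127 against shScr (adjusted p = 1.73e-05, edgeR) and -0.64 ± 0.128 against shPkm1 (adjusted p = 0.000889), and both calls held under all 15 alternatives. Tested among transcripts, its only transcript kept the first call (-0.93, adjusted p = 0.0179, edgeR) but not the second (-0.64, adjusted p = 0.0768). For the gene in shPkm1 against shScr the value was -0.32 (adjusted p = 0.0358, edgeR), but it was 0.07 on log2(TPM + 1), where it was not called (adjusted p = 0.613, limma). That call was also lost with library totals (-0.13, adjusted p = 0.392), with DESeq2 (adjusted p = 0.0870) and without either shPkm1 library (-0.31 and -0.32), without shScr replicate 1 (-0.20) and without either library labelled shPkm2 (-0.31 and -0.31). The TPM ratio of Mpc1 to Mpc2 was 2.46 and 2.95 in shScr, 1.89 and 1.87 in shPkm1 and, with the shPkm2 label, 3.13 and 2.69. Both shPkm1 libraries lay below all others, while the other groups overlapped. For a single ratio, 2 libraries against 2 cannot give an exact permutation p below 0.333, so ratios and shares are given without a test.

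Pdha1 and Pdhb encode the alpha and beta subunits of the enzyme that opens the pyruvate dehydrogenase complex, and they parted in both hairpin groups. Pdhb stood at 220.1 and 217 TPM in shScr, at 146 and 133 TPM in shPkm1 and at 134 and 139 TPM in the libraries labelled shPkm2. Every hairpin library lay below both controls, and the hairpin groups overlapped. Its log2 fold change was -1.04 ± 0.105 (SE; adjusted p = 2.37e-06, edgeR) and -1.13 ± 0.105 (adjusted p = 6.63e-07), and both calls held under all 15 alternatives. The hairpin groups differed by -0.09 (95% interval -0.32 to 0.14; adjusted p = 0.483, edgeR), and by 0.04 with library totals.

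Pdha1, the subunit that carries the sites phosphorylated by the kinases, stood at 129.6 and 127 TPM in shScr, 142 and 122 TPM in shPkm1 and 126 and 123 TPM in the libraries labelled shPkm2. These levels lay close together, and the shPkm1 libraries spanned both other groups. On the TMM scale Pdha1 was called lower in both, at -0.36 (adjusted p = 0.00961, edgeR) and -0.51 (adjusted p = 0.000798). On log2(TPM + 1) the values were 0.04 and -0.05 and neither was called (adjusted p = 0.778 and 0.700, limma). With library totals they were -0.16 and -0.18, also without a call (adjusted p = 0.208 and 0.144, edgeR), and the call in shPkm1 was lost without shPkm1 replicate 2 (-0.28, adjusted p = 0.110, edgeR). The ratio within a library needs no scale between libraries. The TPM ratio of Pdha1 to Pdhb was 0.589 and 0.586 in shScr, 0.969 and 0.919 in shPkm1 and 0.937 and 0.880 in the libraries labelled shPkm2. All 4 hairpin libraries lay above both controls.

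**Figure D2:**
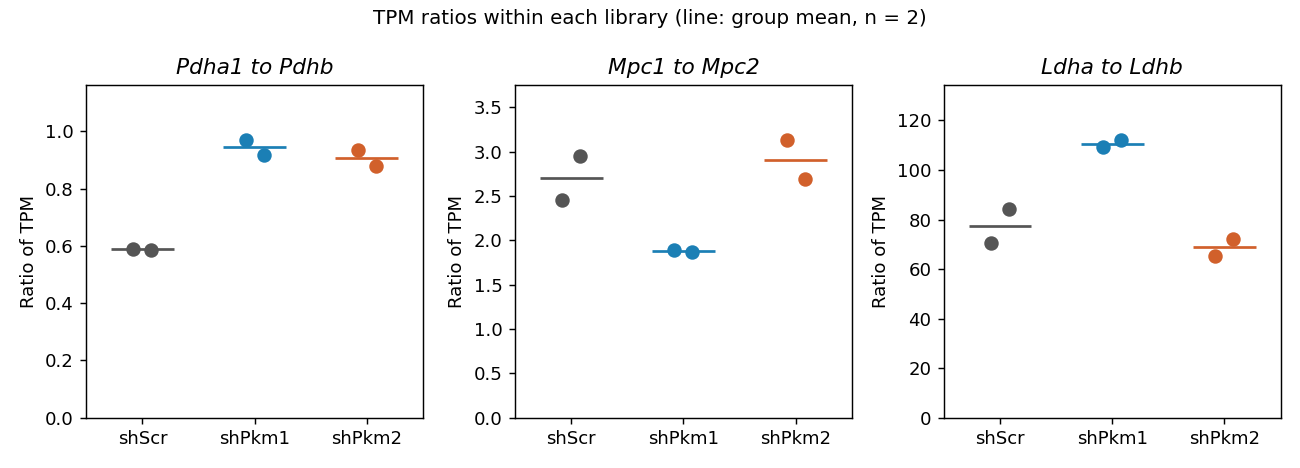
Ratio of TPM within each library (vertical axis, starting at 0) for Pdha1 to Pdhb, Mpc1 to Mpc2 and Ldha to Ldhb, with the group mean as a line (n = 2 per group). Pdha1 to Pdhb is 0.586 and 0.589 in shScr and between 0.880 and 0.969 in the 4 other libraries, whereas Mpc1 to Mpc2 and Ldha to Ldhb set the shPkm1 libraries apart.

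Of the 10 genes, Pdk4 and Pdk2 had the widest ranges. The start regions of the kinases are shown because the 4 genes of 1 family went in different directions. Each sequence is the RefSeq window of 250 bases before to 50 bases after a transcript start on GRCm38.p6, written 5′ to 3′ on the gene's strand, at chr2:71872974-71873273 (plus strand) for Pdk1, chr11:95041322-95041621 (minus) for Pdk2, chrX:93832101-93832400 (minus) for Pdk3 and chr6:5496229-5496528 (minus) for Pdk4. Pdk1 and Pdk2 have 2 such windows in the table, of which the first listed is shown. Capitals mark matches, on either strand, to CANNTG (the E-box bound by myogenic and Myc-type factors), to CACGTG, its Myc-type form, or to ACGTG (the core of the hypoxia response element, held within CACGTG).
Pdk1: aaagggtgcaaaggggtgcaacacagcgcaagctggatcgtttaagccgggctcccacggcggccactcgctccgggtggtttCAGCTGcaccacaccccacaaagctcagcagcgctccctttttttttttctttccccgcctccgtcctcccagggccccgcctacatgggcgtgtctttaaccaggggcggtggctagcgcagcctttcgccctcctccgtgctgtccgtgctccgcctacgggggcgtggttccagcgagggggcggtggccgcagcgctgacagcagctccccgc
Pdk2: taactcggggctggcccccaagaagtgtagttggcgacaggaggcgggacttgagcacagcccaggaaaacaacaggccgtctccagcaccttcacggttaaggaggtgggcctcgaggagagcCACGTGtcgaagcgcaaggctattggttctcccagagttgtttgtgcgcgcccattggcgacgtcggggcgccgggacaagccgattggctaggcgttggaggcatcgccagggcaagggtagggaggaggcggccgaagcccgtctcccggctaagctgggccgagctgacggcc
Pdk3: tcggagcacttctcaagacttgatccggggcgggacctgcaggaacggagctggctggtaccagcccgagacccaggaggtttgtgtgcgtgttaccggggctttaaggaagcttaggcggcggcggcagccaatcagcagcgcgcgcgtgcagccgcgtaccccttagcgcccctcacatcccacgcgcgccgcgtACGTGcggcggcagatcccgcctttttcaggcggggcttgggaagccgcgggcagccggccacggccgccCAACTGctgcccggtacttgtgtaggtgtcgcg
Pdk4: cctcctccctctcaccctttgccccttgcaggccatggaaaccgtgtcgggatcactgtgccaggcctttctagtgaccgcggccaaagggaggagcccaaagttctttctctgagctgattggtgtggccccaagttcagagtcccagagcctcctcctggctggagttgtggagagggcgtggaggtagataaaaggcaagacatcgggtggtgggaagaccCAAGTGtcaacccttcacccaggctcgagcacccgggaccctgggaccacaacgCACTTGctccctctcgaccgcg
The Pdk1 window holds 1 CANNTG, and the window of Pdk1 not shown holds 2. The Pdk2 window holds 1 CACGTG, which is also a CANNTG and an ACGTG on both strands, while the window of Pdk2 not shown holds none of the motifs searched. The Pdk3 window holds 1 ACGTG and 1 CANNTG, and the Pdk4 window 2 CANNTG. No window of the 4 holds TGTTTAC (the forkhead core) or AGGTCA (the nuclear receptor half-site). Among 32851 windows of the same length, CANNTG was in 72.3%, CACGTG in 7.15%, ACGTG in 19.6%, TGTTTAC in 3.65% and AGGTCA in 16.3%. A match describes letters and says nothing about binding.

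Pdk4, the kinase tied to fasting and fatty acid use, moved in opposite directions in the 2 hairpin groups. Its level was 4.50 and 5.66 TPM in shScr, 3.21 and 3.04 TPM in shPkm1 and 23.9 and 21.1 TPM in the libraries labelled shPkm2. No group overlapped another. Pdk4 fell in shPkm1 (log2 fold change -1.09 ± 0.137, adjusted p = 1.61e-05, edgeR) and rose 3.23-fold in the libraries labelled shPkm2 (1.69 ± 0.117, adjusted p = 3.36e-08). The difference between these 2 groups was tested directly and was 6.86-fold (2.78 ± 0.126, adjusted p = 1.06e-09, edgeR). All 3 calls held under all 15 alternatives.

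Pdk2, the kinase most widely expressed across tissues, fell in steps. It stood at 56.2 and 43.8 TPM in shScr, at 29.9 and 35.0 TPM in shPkm1 and at 15.9 and 17.3 TPM in the libraries labelled shPkm2. The 3 groups did not overlap, although the controls differed from each other by more than the libraries of the other groups did. The log2 fold change was -1.02 ± 0.159 (SE; adjusted p = 0.000102, edgeR) and -2.05 ± 0.167 (adjusted p = 1.76e-07) against shScr, and -1.03 ± 0.168 (adjusted p = 0.000177) between the hairpin groups. All 3 calls held under all 15 alternatives, with the value in shPkm1 between -1.27 and -0.73 when single libraries were left out. Those alternatives were fits on genes. The curated transcript, with at least 99.5% of Pdk2 counts, was also tested among transcripts. It was called lower with the shPkm2 label (-2.02, adjusted p = 0.00713, edgeR). It was not called in shPkm1 (-0.98, adjusted p = 0.0584, edgeR) or between the hairpin groups (-1.04, adjusted p = 0.0650).

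Pdk3, the kinase most strongly activated by binding to the core of the complex, went the other way. Its level was 17.5 and 16.5 TPM in shScr, 29.9 and 26.4 TPM in shPkm1 and 33.6 and 36.0 TPM in the libraries labelled shPkm2, with no overlap between groups. The rise in the libraries labelled shPkm2 was 0.57 ± 0.120 (adjusted p = 0.000825, edgeR) and held under all 15 alternatives. In shPkm1 the value was 0.33 ± 0.121 (adjusted p = 0.0304, edgeR). This call was lost with DESeq2 (adjusted p = 0.0667), without shScr replicate 2 (0.20) and without shPkm1 replicate 1 (0.29) or 2 (0.38). Between the hairpin groups the difference was 0.25 (95% interval -0.01 to 0.50; adjusted p = 0.0930, edgeR), and it was called with library totals (0.38, adjusted p = 0.0155), with only the 2 groups compared (adjusted p = 0.0263) and without shScr replicate 1 (adjusted p = 0.0272) or 2 (adjusted p = 0.0264).

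Pdk1, known as a target of the hypoxia factor encoded by Hif1a, stood at 17.7 and 15.4 TPM in shScr, 31.8 and 28.8 TPM in shPkm1 and 22.1 and 22.5 TPM in the libraries labelled shPkm2. It was highest in shPkm1 and no groups overlapped. Its log2 fold change was 0.39 ± 0.121 in shPkm1 (adjusted p = 0.0135, edgeR), a call lost without shScr replicate 2 (0.21, adjusted p = 0.0975) and without shPkm1 replicate 1 (0.35, adjusted p = 0.0966). It was -0.53 ± 0.120 between the libraries labelled shPkm2 and shPkm1 (adjusted p = 0.00237, edgeR), which held under all 15 alternatives. Against shScr the libraries labelled shPkm2 gave -0.14 (95% interval -0.40 to 0.12; adjusted p = 0.316, edgeR) on the TMM scale but 0.41 on log2(TPM + 1) (adjusted p = 0.0120, limma). The TMM value was 0.06 without shScr replicate 1 and -0.32, with a call (adjusted p = 0.00881, edgeR), without shScr replicate 2. Most Pdk1 counts were assigned to 1 curated transcript and 1 predicted transcript. The curated one held 74.3% and 76.7% of the gene's counts in shScr, 67.5% and 61.7% in shPkm1 and 64.8% and 57.3% in the libraries labelled shPkm2. How shared reads were divided between them by the authors' software sets these values.

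The 4 kinases together changed little in TPM. For the median gene that scale lay 0.31 and 0.36 above TMM in the hairpin groups against shScr. A level sum in TPM can therefore be lower relative to the other genes, and it was not tested on TMM. The sum of the kinases was 96.0 and 81.4 TPM in shScr, 94.8 and 93.2 TPM in shPkm1 and 95.5 and 97.0 TPM in the libraries labelled shPkm2. In TPM, what differed was the make-up. In shScr, Pdk2 gave 56.2% ± 3.37 (SD, n = 2) of the summed TPM, Pdk3 19.3% ± 1.45, Pdk1 18.7% ± 0.313 and Pdk4 5.82% ± 1.61. In shPkm1 the shares of Pdk2, Pdk1 and Pdk3 lay close to each other, at 34.5% ± 4.24, 32.2% ± 1.85 and 29.9% ± 2.31, and Pdk4 gave 3.32% ± 0.0871. In the libraries labelled shPkm2 the order was Pdk3 at 36.2% ± 1.38, Pdk4 at 23.4% ± 2.27, Pdk1 at 23.2% ± 0.0503 and Pdk2 at 17.3% ± 0.840. Pdk4 and Pdk1 did not differ there beyond their spread. Shares of summed counts, which are not scaled to length, give another order. In shScr, shPkm1 and the libraries labelled shPkm2 they were 46.6%, 26.9% and 13.3% for Pdk2 and 7.44%, 3.99% and 27.8% for Pdk4. For Pdk1 they were 31.9%, 48.7% and 34.3%, and for Pdk3 14.1%, 20.5% and 24.6%. By counts Pdk1 thus led in both hairpin groups.

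**Figure D3:**
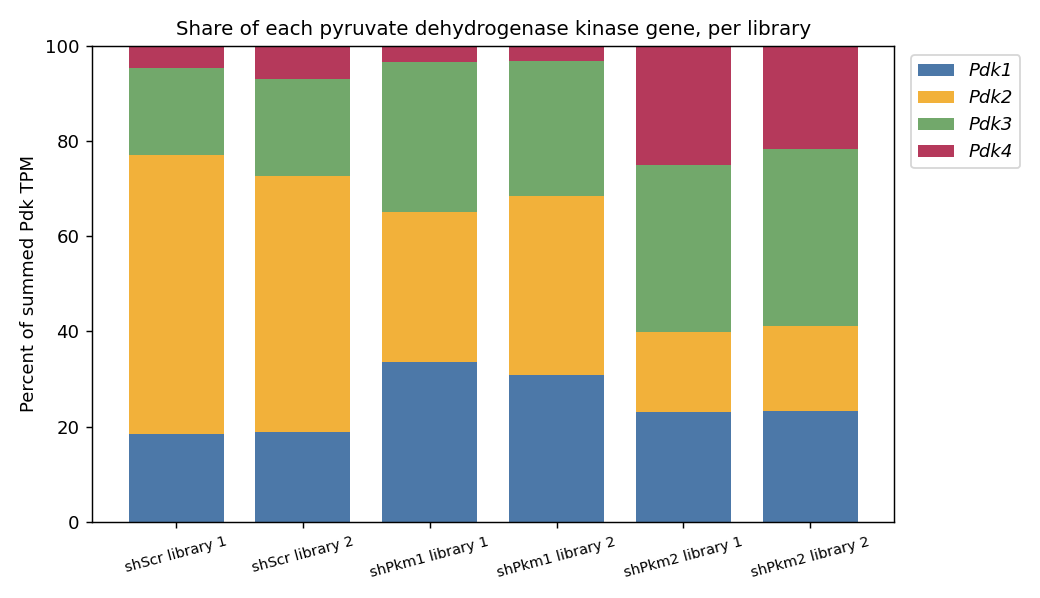
Share of each kinase in the summed TPM of Pdk1 to Pdk4 (vertical axis, percent, adding to 100 in each bar), for the 6 libraries. Pdk2 gives 58.6% and 53.8% of the sum in shScr and 16.7% and 17.9% in the libraries labelled shPkm2, where Pdk4 gives 25.0% and 21.8%.

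The lactate dehydrogenase genes differed in level and in the size of their changes. On TMM, with library totals and on log2(TPM + 1), both genes had the same sign in each comparison. Ldha, the subunit that dominates in glycolytic muscle, stood at 1629 and 1643 TPM in shScr, 1484 and 1482 TPM in shPkm1 and 1805 and 1807 TPM in the libraries labelled shPkm2. In TPM the groups did not overlap, with shPkm1 lowest and the libraries labelled shPkm2 highest. On the TMM scale Ldha was called lower in both, at -0.53 ± 0.121 (adjusted p = 0.00185, edgeR) and -0.31 ± 0.121 (adjusted p = 0.0338). The second value was 0.01 with library totals and 0.14 on log2(TPM + 1), without a call in either (adjusted p = 0.917, edgeR, and 0.224, limma). Its call was also lost with the replicate block (adjusted p = 0.0676, edgeR) and without shScr replicate 1 (-0.23), either shPkm1 library (-0.31 and -0.31), or replicate 1 (-0.27) or 2 (-0.35) of the libraries labelled shPkm2. The first was -0.14 on log2(TPM + 1) (adjusted p = 0.238, limma). The hairpin groups differed by 0.22 (95% interval -0.04 to 0.48; adjusted p = 0.144, edgeR), which was called with library totals (0.35, adjusted p = 0.0144), on log2(TPM + 1) (0.28, adjusted p = 0.0346, limma), with only the 2 groups compared (adjusted p = 0.0429) and without either shScr library (0.22 and 0.22).

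Ldhb, the subunit typical of oxidative tissue, was far lower, at 23.1 and 19.5 TPM in shScr, 13.6 and 13.2 TPM in shPkm1 and 27.6 and 25.0 TPM in the libraries labelled shPkm2. Its groups did not overlap in TPM. It fell in shPkm1 (-1.06 ± 0.153, adjusted p = 5.01e-05, edgeR) and stood higher in the shPkm2-labelled libraries than in shPkm1 (0.90 ± 0.151, adjusted p = 0.000236), and both calls held under all 15 alternatives. Against shScr the libraries labelled shPkm2 gave -0.17 (95% interval -0.48 to 0.14; adjusted p = 0.319, edgeR), but 0.16 with library totals and 0.30 on log2(TPM + 1) (adjusted p = 0.0656, limma). Without shScr replicate 1 it was 0.06, and without shScr replicate 2 it was -0.37 with a call (adjusted p = 0.0157, edgeR). The TPM ratio of Ldha to Ldhb was 70.5 and 84.3 in shScr, 109.4 and 112 in shPkm1 and 65.4 and 72.3 in the libraries labelled shPkm2. Both shPkm1 libraries lay above all others, while the remaining groups overlapped. Ldhb thus gave 1.29% ± 0.161 (SD, n = 2), 0.896% ± 0.0145 and 1.44% ± 0.101 of the summed lactate dehydrogenase TPM.

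**Figure D4:**
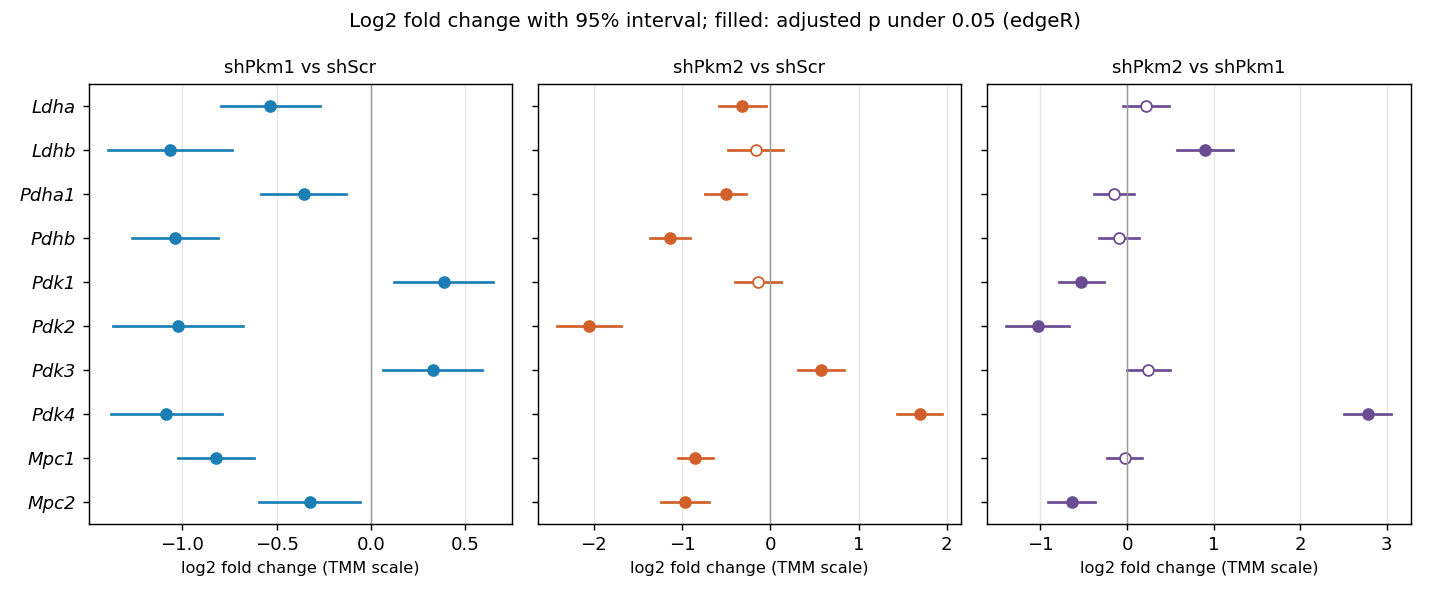
Log2 fold change of the 10 genes on the TMM scale with its 95% interval in the 3 comparisons (horizontal axis, its own scale per panel); filled points have an adjusted p under 0.05 in edgeR. The widest difference is that of Pdk4 between the hairpin groups (2.78), and on log2(TPM + 1) the direction of Pdha1 and Mpc2 in shPkm1, of Ldha, Ldhb and Pdk1 in shPkm2 against shScr and of Mpc1 between the hairpin groups is the opposite, as is that of Pdhb between the hairpin groups with library totals.

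Several of these genes have copies or neighbours that could share reads. On the GRCm38 assembly the 10 genes lie on 8 chromosomes, with Pdha1 (X, 160122219 to 160138430) and Pdk3 (X, 93764616 to 93832150) both on X and Pdk4 (6, 5483351 to 5496278) and Ldhb (6, 142490249 to 142507957) both on 6. At 95% identity over at least 500 bases, Ldha matched transcripts of 2 other annotated genes (Gm5452 and Gm9247), Ldhb of 1 (Gm5514) and Pdhb of 1 (Gm6123). The 4 kinases and both carrier genes matched none. An exon of Pdha1 overlaps Map3k15 on the opposite strand, and an exon of Mpc1 overlaps 4930506C21Rik. The strandedness of the libraries is not given in the sources used here, so reads of these pairs could not be told apart. Of the 3 Ldhb transcripts, 2 hold identical estimated counts in every library.

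The other genes of pyruvate handling were read from a list of 25, of which 18 could be tested. In shPkm1, 4 were called higher and 9 lower (against 31.8% and 31.4% of all genes tested), with a median log2 fold change of -0.38. In the libraries labelled shPkm2 it was 5 and 9 (33.9% and 34.2% of all genes), with a median of -0.33, both against shScr. Between the hairpin groups it was 4 higher and 3 lower (25.7% and 27.3% of all genes; median 0.06). On log2(TPM + 1) the number lower was 3 in shPkm1 and 5 with the shPkm2 label.

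Pdhx, which anchors the last enzyme of the pyruvate dehydrogenase complex to its core, stood at 42.3 and 35.9 TPM in shScr, 26.4 and 24.8 TPM in shPkm1 and 23.6 and 21.9 TPM in the libraries labelled shPkm2, so that both hairpin groups lay below both controls. Its log2 fold change was -1.01 (adjusted p = 1.55e-05, edgeR) and -1.24 (adjusted p = 1.67e-06). Dlat, the core acetyltransferase, was called lower at -0.52 and -0.57, but on log2(TPM + 1) it was -0.12 and -0.11 without a call. Dld, the last enzyme, was called lower at -0.26 and -0.26 on TMM, while the values on log2(TPM + 1) were 0.13 and 0.20. Its calls were lost when any of 5 libraries was left out, with values from -0.36 to -0.15 over all 6 fits that leave out a library. The phosphatase gene Pdp1 gave -0.22 (adjusted p = 0.314, edgeR) in shPkm1, where it was 0.18 on log2(TPM + 1) and 0.16 without shScr replicate 1, and -0.53 with a call without shScr replicate 2. In the libraries labelled shPkm2 it was lower (-0.69, adjusted p = 0.00542, edgeR), a call lost without shScr replicate 1 (-0.31), with library totals (-0.36, adjusted p = 0.0941) and on log2(TPM + 1) (-0.18, adjusted p = 0.404, limma). Between the hairpin groups it was -0.47 (adjusted p = 0.0509, edgeR), with a call under 7 of 15 alternatives, among them no filter (adjusted p = 0.0288), only the groups compared (adjusted p = 0.000334) and leaving out either shScr library (adjusted p = 0.000403 and 0.000404). Pdp2 was called in no comparison, with values of -0.48, -0.23 and 0.25, of which the first was -0.09 and the second 0.18 on log2(TPM + 1). It was called lower in shPkm1 with no filter (-0.46, adjusted p = 0.0480), and without shScr replicate 2, at -0.71 in shPkm1 and -0.45 for the libraries labelled shPkm2.

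Lipoic acid is a cofactor of this complex. Of 6 genes tested for its synthesis or for the iron-sulphur clusters that synthesis needs, 3 were lower in shPkm1 (against 31.4% lower over all genes tested; median -0.53), and 5 were lower with the shPkm2 label (against 34.2% over all genes; median -0.62). With library totals and on log2(TPM + 1), the number lower with the shPkm2 label was 3 and 3, and it was 3 without replicate 1 of those libraries. In shPkm1 it was 2 on log2(TPM + 1). Nfu1 and Glrx5, which act in iron-sulphur cluster assembly, were lower in both groups on every scale tried, at -0.76 and -0.85 in shPkm1 and -0.99 and -0.77 with the shPkm2 label on TMM. Bola3, of the same pathway, was called lower on TMM (-0.63 and -0.46), but on log2(TPM + 1) the values were -0.24 and -0.0036, without a call, and the second call was also lost with library totals (-0.13) and without replicate 1 of the libraries labelled shPkm2 (-0.31). Lias, which makes lipoic acid, was called lower with the shPkm2 label at -0.28 (adjusted p = 0.0492, edgeR), while it was 0.16 on log2(TPM + 1) and 0.045 with library totals. Its call held under 2 of 15 alternatives and was lost, among others, without shScr replicate 1 (-0.19), either shPkm1 library (-0.28 and -0.28) or replicate 1 (-0.24) or 2 (-0.32) of the libraries labelled shPkm2. Lipt1, a lipoyl transferase, was lower in the libraries labelled shPkm2 than in shPkm1 (-0.84, adjusted p = 0.00129, edgeR). With the shPkm2 label it was also lower against shScr (-1.03, adjusted p = 0.000174, edgeR). That call held with library totals (-0.70) and on log2(TPM + 1) (-0.50). In shPkm1 Lipt1 gave -0.19 (adjusted p = 0.346, edgeR), and 0.18 on log2(TPM + 1).

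Pyruvate has other users. Pcx, pyruvate carboxylase, which makes oxaloacetate, stood at 57.2 and 65.0 TPM in shScr, 22.6 and 24.2 TPM in shPkm1 and 29.5 and 23.9 TPM in the libraries labelled shPkm2. It was lower in every hairpin library than in both controls, by -1.77 (adjusted p = 3.05e-08, edgeR) and -1.65 (adjusted p = 2.28e-08), with 0.12 between the hairpin groups (adjusted p = 0.374). Gpt2, the mitochondrial alanine aminotransferase, stood at 79.3 and 65.0 TPM in shScr, 80.4 and 76.8 TPM in shPkm1 and 15.6 and 14.6 TPM in the libraries labelled shPkm2. It was lower in the libraries labelled shPkm2 than in either other group (-2.45 against shPkm1, adjusted p = 9.59e-09, and -2.72 against shScr, adjusted p = 1.83e-09, edgeR), and gave -0.28 (adjusted p = 0.0740, edgeR) in shPkm1, where it was 0.13 on log2(TPM + 1) and was called lower without shScr replicate 2 (-0.49).

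Pck2, the mitochondrial enzyme that turns oxaloacetate into phosphoenolpyruvate, was highest in shPkm1. It stood at 23.7 and 23.0 TPM in shScr, 115 and 121 TPM in shPkm1 and 42.3 and 38.0 TPM in the libraries labelled shPkm2. It rose by 1.95 in shPkm1 (adjusted p = 1.18e-08, edgeR) and by 0.34 in the libraries labelled shPkm2 (adjusted p = 0.0125), and it was lower in the latter than in shPkm1 (-1.60, adjusted p = 4.34e-08). The call with the shPkm2 label was lost without replicate 1 of those libraries (0.30). Of the malic enzymes, which form pyruvate from malate, Me1 was higher in both groups (0.52, adjusted p = 0.000386, and 0.79, adjusted p = 7.36e-06, edgeR) and Me3 lower (-1.42 and -1.68), while Me2 was higher in the libraries labelled shPkm2 than in shPkm1 (1.00, adjusted p = 1.47e-06, edgeR). Against shScr, Me2 was higher with the shPkm2 label (0.74, adjusted p = 1.26e-05, edgeR). In shPkm1 Me2 was called lower on TMM (-0.25, adjusted p = 0.0346, edgeR). There it was -0.06 with library totals and 0.09 on log2(TPM + 1), without a call.

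Lactate leaves and enters cells through monocarboxylate transporters, whose partner proteins are encoded by Bsg and Emb. Slc16a1 stood at 12.5 and 15.4 TPM in shScr, 16.3 and 15.2 TPM in shPkm1 and 31.3 and 29.3 TPM in the libraries labelled shPkm2. Only the last group stood apart, at 0.67 against shScr (adjusted p = 4.33e-05, edgeR) and 0.88 against shPkm1 (adjusted p = 6.05e-06). In shPkm1 it was -0.21 (adjusted p = 0.0802, edgeR) but 0.17 on log2(TPM + 1), and it was called lower without shScr replicate 1 (-0.27). Slc16a3, the exporter of glycolytic cells, gave 0.31 (adjusted p = 0.0327, edgeR) and 0.26 (adjusted p = 0.0596). The first call was lost with DESeq2 (adjusted p = 0.0549), without shScr replicate 2 (0.16) and without shPkm1 replicate 1 (0.36) or 2 (0.28), and the second value was called with library totals (0.59, adjusted p = 0.000305), on log2(TPM + 1) (0.70, adjusted p = 0.000147, limma) and without shScr replicate 1 (0.43). Bsg was called lower at -0.54 and -0.85, while Emb rose by 1.45 and 1.61. On log2(TPM + 1) the value of Bsg in shPkm1 was -0.15, without a call. Between the hairpin groups Bsg was lower by -0.30 (adjusted p = 0.0437, edgeR), a call lost with library totals (-0.17, adjusted p = 0.182), on log2(TPM + 1) (-0.24, adjusted p = 0.0712, limma), without any 1 of their 4 libraries (-0.33 to -0.29) and with the replicate block (adjusted p = 0.0803).

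**Figure D5:**
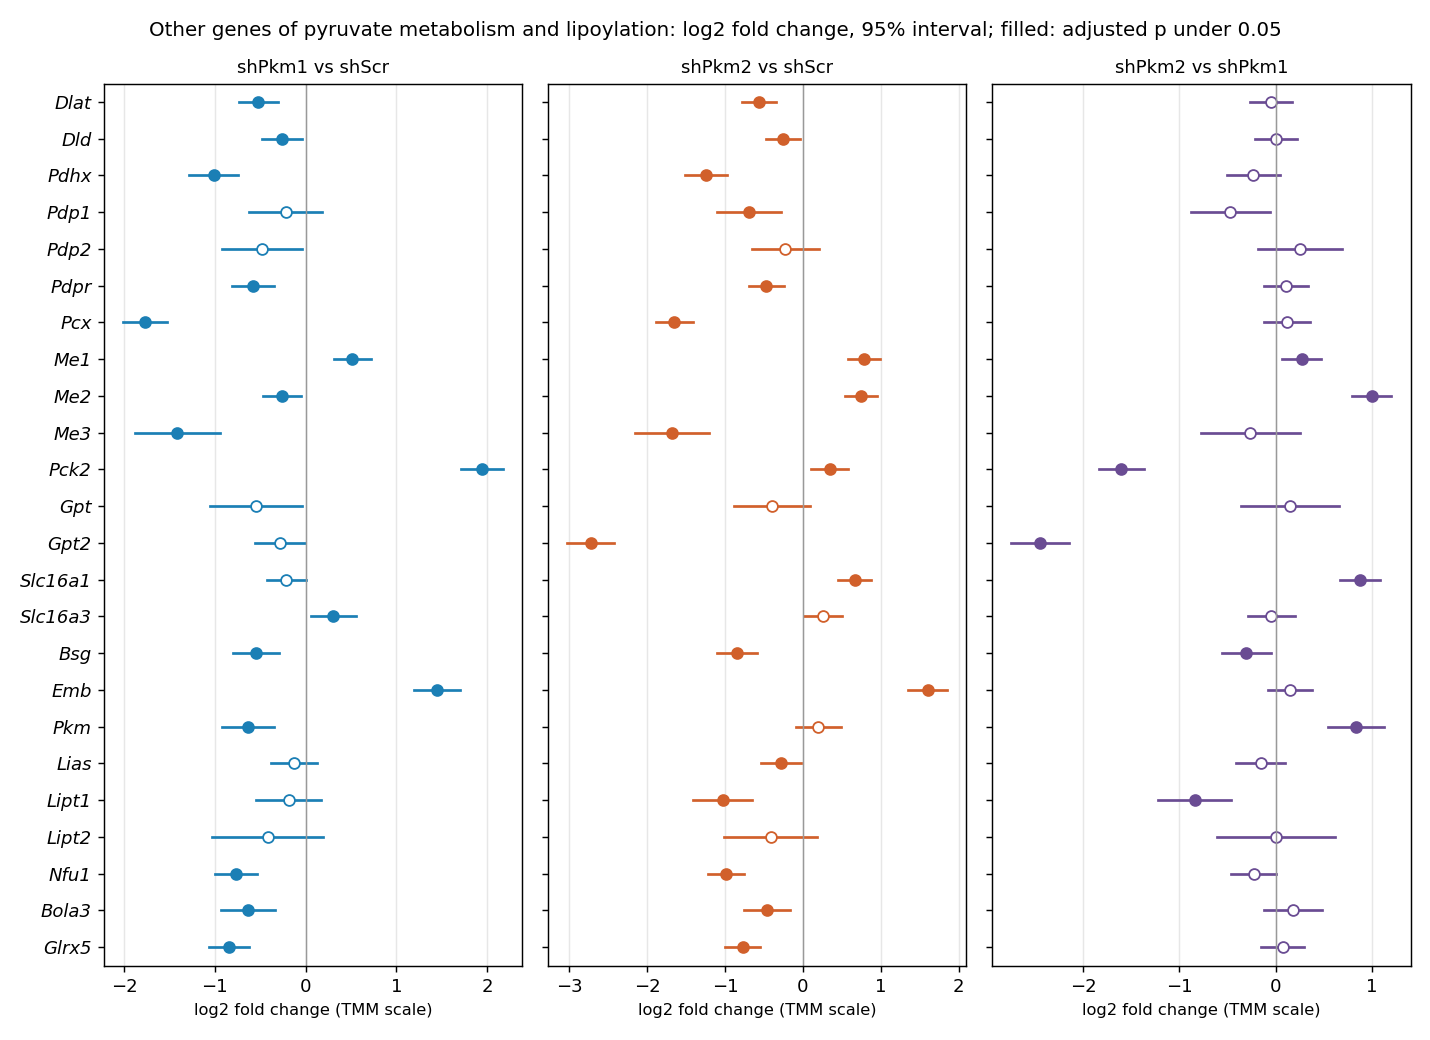
Log2 fold change on the TMM scale with its 95% interval for 24 other genes of pyruvate handling and lipoic acid synthesis in the 3 comparisons (horizontal axis, its own scale per panel); filled points have an adjusted p under 0.05 in edgeR. Pcx, Me3 and Emb lie on the same side in both hairpin groups against shScr, whereas Pck2 and Gpt2 set the hairpin groups apart (-1.60 and -2.45); on log2(TPM + 1) the direction of Dld and Lias in both, of Pdp1, Me2, Gpt2, Slc16a1 and Lipt1 in shPkm1, of Pdp2, Gpt and Lipt2 in shPkm2, each against shScr, and of Dlat and Slc16a3 between the hairpin groups is the opposite.

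Of 11 genes for factors known to act on the kinases or carriers, 9 could be tested. In shPkm1, 4 were higher and 1 was lower (against 31.8% and 31.4% over all genes tested; median 0.15). The libraries labelled shPkm2 had 3 and 1 (33.9% and 34.2% of all genes; median 0.21) against shScr, so that the number higher was close to the share over all genes. On log2(TPM + 1) the number higher was 7 in shPkm1 and 6 with the shPkm2 label. Without shScr replicate 2 the number lower with that label was 2. Hif1a rose from 27.7 and 25.8 TPM in shScr to 89.4 and 76.8 TPM in shPkm1 and 96.5 and 91.3 TPM in the libraries labelled shPkm2 (1.24, adjusted p = 7.06e-07, and 1.36, adjusted p = 1.69e-07, edgeR). Esrra, an orphan receptor that drives mitochondrial genes, fell from 51.8 and 53.3 TPM to 30.7 and 34.9 and to 29.8 and 31.0 TPM (-1.08, adjusted p = 2.92e-06, and -1.24, adjusted p = 4.74e-07, edgeR). Nr3c1, the glucocorticoid receptor, was higher in shPkm1 by 1.15 (adjusted p = 3.88e-06, edgeR) and with the shPkm2 label by 0.85 (adjusted p = 3.99e-05, edgeR). Between the hairpin groups it was -0.30 (adjusted p = 0.0468, edgeR), a call lost with library totals (-0.17), with DESeq2, on log2(TPM + 1) (-0.21), without shPkm1 replicate 1 (-0.15) and without replicate 1 (-0.35) or 2 (-0.26) of the libraries labelled shPkm2. Whether any of them bears on the kinases was not tested.

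The profiles of Pdk4 and Pdk2, which had the widest ranges of group means (2.76 and 2.03 in log2 CPM), were compared with those of 10717 other genes over the 6 libraries. The measure was the root mean square difference of centred log2 CPM. The 5 genes nearest to Pdk4 were Dmbx1 (0.164), Epb41 (0.172), Ptprn (0.182), Efhd1 (0.203) and Prrg4 (0.204). The 5 nearest to Pdk2 were Acta2 (0.0937), Josd2 (0.111), Rogdi (0.115), Arl6ip5 (0.118) and P2ry2 (0.120). All profiles share the same libraries, and the likeness is a description. Myog, which drives the differentiation of myoblasts, changed by -0.94 and -5.35 against shScr, and the proliferation gene Mki67 by 1.46 and 2.90. Both differed between the hairpin groups as well (-4.41 and 1.44), and their part in the changes of Pdk4 and Pdk2 was not tested.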

How the data were processed

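RNA of 6 libraries of C2C12 cells was sequenced by a commercial provider, per the labels' protocols. The deposited table has 57920 RefSeq transcripts, each with an estimated count, a TPM and an FPKM value per library, per the file headers. The authors' estimated counts need not be whole, their TPM values are scaled to transcript length and to 1 fixed sum per library, and the deposited FPKM values were not used here. The submitters' processing notes name HISAT, StringTie, Bowtie, RSEM, DESeq2 and the build mm10, without roles or order. The 9 columns of group means were not used, and the authors' own filters are not given in the sources used here.

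Estimated counts were summed per NCBI gene and rounded. Symbols matched 17445 of 17558 genes, and the 113 others held at most 0.148% of a library's counts. Genes passing filterByExpr (minimum count 10, minimum total 15; 12643 genes) were scaled by TMM and tested with edgeR 4.0.16 (R 4.3.3), quasi-likelihood F-test, 1 coefficient per group over all 6 libraries, Benjamini-Hochberg adjusted, two-sided, threshold 0.05. Transcripts were tested likewise (33433). Scripts were checked on simulated counts. TPM values were summed per gene and tested with limma 3.58.1 as an alternative on log2(TPM + 1) and log2(TPM + 0.1), a scale that understates changes of low genes. The other alternatives were DESeq2 size factors, library totals, no filter, DESeq2 1.42.0, a minimum mean of 50 counts, only the groups compared, a replicate block and leaving out each library, where the lone library left in a group is assumed to vary like those of the other groups. SE is the absolute value of a log2 fold change over the square root of its F. Copies were sought with blastn 2.17.0 in GENCODE transcripts.

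The 10 genes and all lists were chosen with earlier results of these data known. Other genes were named by rule: Dlat, Dld, Pdhx, Pcx, Slc16a1, Slc16a3, Bsg, Pdp1 and Pdp2 in every comparison, and up to 3 largest rises and 3 largest falls among called list genes whose mean was 50 counts or more. Pkm, Myog and Mki67 were to be given in any case, for context (Pkm was also among the rises), and Nfu1, Bola3, Glrx5, Lias, Me1 and marker genes outside the rule, after their values were seen. Where a gene was named in 1 comparison, its values in others may stand beside it. Genes most like a member needed a mean of 50 counts or more and a symbol that is no predicted name. Pck1, Ldhc, Mpc1l, Cidec, Ptprc and Adgre1 were not analysed here. Replicates of a group differed by more than sampling noise (chi-square per degree of freedom 31.0, 6.01 and 6.67 in shScr, shPkm1 and shPkm2).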

Additional observations from a re-analysis of the deposited data

How the results depend on the processing

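The counts of called genes and the fold changes of the 10 genes and of the other genes named by rule or for context were recomputed under 15 alternatives; transcripts of the 10 genes were refitted with the replicate block alone, and the Pkm isoforms, cell type marker lists and likeness were not recomputed. Of 450 values of the 10 genes, 392 kept direction and call, 27 lost and 12 gained a call, and 19 changed sign. Of 930 values of the other genes, 814 kept both, 63 lost and 21 gained a call, and 32 changed sign. The calls that held under all 15 were 5 of 10 in shPkm1 (Ldhb, Pdhb, Pdk2, Pdk4, Mpc1), 6 of 8 in the libraries labelled shPkm2 (Pdhb, Pdk2, Pdk3, Pdk4, Mpc1, Mpc2) and 5 of 5 between them (Ldhb, Pdk1, Pdk2, Pdk4, Mpc2). All 15 were fits on genes, and tests on transcripts did not keep every call. Besides Pdk2 and Mpc2, the main Ldhb transcripts were not called in shPkm1 (-1.03, adjusted p = 0.0937, edgeR) or between the hairpin groups (0.84, adjusted p = 0.175). The curated Pdk1 transcript was not called between the hairpin groups (-0.62, adjusted p = 0.0857, edgeR). Of the sign changes among the 10 genes, 17 of 19 arose with library totals or TPM, and 2 (Pdk1 on the TPM scales) were past the threshold. The cause of the changes was not tested. Each group has 2 libraries, and no tagging of molecules is stated.

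With library totals the sign changed for Ldha (0.013), Ldhb (0.16), Pdk1 (0.19), Dld (0.072), Lias (0.045) and Pdp2 (0.10) in shPkm2 against shScr, and for Pdhb (0.037), Mpc1 (0.10), Dlat (0.082) and Slc16a3 (0.084) in shPkm2 against shPkm1. On log2(TPM + 1) and log2(TPM + 0.1) it changed in shPkm1 for Pdha1 (0.036, 0.036), Mpc2 (0.067, 0.069), Dld (0.13, 0.14), Slc16a1 (0.17, 0.18), Gpt2 (0.13, 0.13) and Pdp1 (0.18, 0.20). In shPkm2 against shScr it changed on these scales for Ldha (0.14, 0.14), Ldhb (0.30, 0.31), Pdk1 (0.41, 0.43), Dld (0.20, 0.20), Lias (0.16, 0.17) and Pdp2 (0.18, 0.23), and against shPkm1 for Mpc1 (0.045, 0.045), Dlat (0.016, 0.016) and Slc16a3 (0.033, 0.034). Dld against shPkm1, at 0.00143, was -0.0031 with DESeq2 size factors and -0.0031 with DESeq2, -0.0070 without a filter and -0.0074 at a mean of 50 counts. Leaving out single libraries gave it -0.045 to 0.032, and gave Pcx -0.0063 to 0.22 against shPkm1, Pdp1 -0.53 to 0.16 in shPkm1, and in shPkm2 against shScr Ldhb -0.37 to 0.064, Pdk1 -0.32 to 0.062 and Pdp2 -0.47 to 0.032.

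The number of the 10 genes higher in shPkm1, 2 as reported, was 1 with DESeq2 and 0 to 2 with single libraries left out (0 without shScr replicate 2 or shPkm1 replicate 1). The number lower, 8, was 5 on log2(TPM + 1) and 5 on log2(TPM + 0.1). The number higher between the hairpin groups, 2, was 4 with library totals, 4 with only the groups compared, and 2 to 4 with single libraries left out (4 without either shScr library). Of other pyruvate genes lower in shPkm1, 9 became 3 and 3 on the 2 TPM scales. In shPkm2 against shScr, 9 became 5 with totals, 5 and 5 on TPM. Against shPkm1, 3 became 5 without a filter, 5 with only the groups compared, and 2 to 5 with single libraries left out. Lipoic acid genes lower in shPkm2 against shScr, 5, became 3 with totals, 3 and 3 on TPM, and 3 to 5 with single libraries left out. Of the regulators higher, 4 became 7 and 7 on TPM in shPkm1, and 3 became 6 with totals, 6 and 6 on TPM in shPkm2 against shScr, where the 1 lower became 1 to 2 with single libraries left out. Over all genes the share of calls that were higher moved from about even to 65.8%, 69.3% and 61.3% with totals and to 78.1%, 75.7% and 53.8% on log2(TPM + 1).

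No strong effect shared by same-numbered libraries was seen: their deviations from their group means correlated at -0.0256, 0.0418 and 0.0527. These values cannot tell whether the libraries were prepared in pairs, which the labels do not say. With the replicate block, 7922, 8566 and 6682 genes were called, against 7984, 8602 and 6703. Among the 10 genes it changed 1 call, that of Ldha in shPkm2 (adjusted p = 0.0676, edgeR). Among the others named it ended those of Bsg between the hairpin groups (adjusted p = 0.0803, edgeR) and of Lias in shPkm2 (0.0531), and made those of Pdp2 in shPkm1 (0.0291) and Pdp1 between the hairpin groups (0.0270), which 6 other alternatives also called.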
